A study of Homo sapiens with 12 samples.

Results

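The genes of the matrix metalloproteinases (MMP), of the ADAM and ADAMTS metalloproteinases and of their tissue inhibitors (TIMP) were examined in Calu-6 lung carcinoma cells after knockdown of *LAPTM4B* and after withdrawal of serum. Members were taken by name: a feature of the array belonged if its only gene symbol was MMP, ADAM or ADAMTS followed by a number, with a final letter allowed for MMP, or 1 of the 4 TIMPs. The rule gave 64 of the 18417 genes that the array measured by features with exactly 1 symbol, namely 22 MMP, 21 ADAM, 17 ADAMTS and 4 TIMP genes. *MMP16* and *TIMP3* had more than 1 feature, and of these the brightest by its average across the 12 arrays was used. *ADAM5* and *ADAM6* are transcribed pseudogenes in RefSeq and the other members code for proteins. Calu-6 is an established human lung cancer line. All cells were transfected in DMEM/F12 cultures with Lipofectamine RNAiMAX, either with a scrambled control siRNA (siControl) or with siRNA against *LAPTM4B* (siLAPTM4B), each as a commercial SMARTpool. A day later the cultures received either 10% FBS or no serum for 48 h, and RNA was taken 72 h from transfection. The 4 groups (siControl or siLAPTM4B, with 10% FBS or with no serum) had 3 Affymetrix Human Gene 1.0 ST arrays each, from cultures that the labels call biological replicates. The model was thus 1 cell line and 1 siRNA pool, and no untransfected cells were among these samples.

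MMPs are zinc-dependent endopeptidases that are made as inactive precursors and cleave collagens, other matrix proteins and many secreted factors, either as secreted enzymes or, for the membrane-type MMPs, at the cell surface. ADAMs are mostly membrane-bound and release the outer parts of other membrane proteins, such as ligands of the EGF receptor, TNF and Notch receptors, whereas the secreted ADAMTS enzymes cut proteoglycans, procollagens and other matrix components. TIMPs bind the active site of these enzymes, and TIMP3, which is held in the matrix, also inhibits ADAM17 and several ADAMTS proteases. In carcinomas the MMPs are best known for matrix breakdown during invasion, and transcripts of many of them come from stromal cells rather than from the tumour cells themselves.

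*LAPTM4B*, the target of the siRNA and a gene for a lysosomal membrane protein, was checked first. Its log2 signal was 11.75 to 11.80 in the siControl arrays and 9.99 to 10.04 in the siLAPTM4B arrays with 10% FBS, and 11.87 to 11.94 against 10.45 to 10.54 without serum. It fell to 0.297 of the control level in serum (limma adjusted p = 6.43e-07) and to 0.373 without serum (adjusted p = 8.62e-06), so no array went against its label. Its own log2 fall was thus smaller without serum. In limma on all 12 arrays this difference was 0.332 (adjusted p = 0.0345), a call lost with any 1 array left out (0.0522 to 0.103). What part this had in differences of other genes between the media was not tested. Arrays of a group correlated at 0.9967 to 0.9982 over all features, and no pair held identical values. Of 6 epithelial markers 4 lay above the median feature, and *KRT8* (12.76 to 12.99) and *KRT18* (12.14 to 12.35) gave high signals. *KRT19* (7.91 to 8.25) and E-cadherin (*CDH1*, 6.10 to 6.29) lay below it. Of 4 mesenchymal markers, vimentin (*VIM*, 13.15 to 13.30), *FN1* (12.35 to 12.55) and *ZEB1* (10.49 to 10.70) gave high signals and N-cadherin (*CDH2*, 6.36 to 6.55) a low one. Other epithelial markers moved: *KRT7* was lower on withdrawal in siControl and siLAPTM4B cells (-1.63 and -1.9) and after knockdown without serum (-0.371), and *EPCAM* rose by 1.09 and 0.791 on withdrawal and by 0.506 after knockdown in serum. Of 3 endothelial markers 0 lay above the median feature. Of 4 leukocyte markers 1 lay above the median feature, *CD68* (9.94 to 10.69), and *PTPRC*, which defines leukocytes, stayed at 5.19 to 5.31. *CD68* (-0.516 and -0.619) and *CD14* (-0.346 and -0.323) were lower on withdrawal in siControl and siLAPTM4B cells, and the list mean was 7.47 to 7.62 with serum and 7.28 to 7.39 without. Among 6 fibroblast markers 2 had a mean above the median feature, *COL1A1* (8.47 to 8.72) and *PDGFRB* (7.6 to 9.3). *LUM* ran from 6.51 to 9.14, and *DCN* stayed at 5.11 to 5.39. The mean log2 signal of the list was 7.80 to 7.87 and 7.66 to 7.74 in the siControl and siLAPTM4B arrays with 10% FBS. It was lower without serum, at 7.28 to 7.32 and 7.13 to 7.20. The called genes behind this were *LUM* and *PDGFRB*, lower in each of the 4 comparisons between groups, and the part of these marker shifts in the results for the proteases was not tested. As RNA of whole cultures was measured, fewer cells with a transcript cannot be told apart from less of it per cell.

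Changes among the proteases involved all 4 families, with *MMP1*, *MMP14*, *MMP24* and *ADAM19* among the higher and *MMP2*, *ADAM28*, *TIMP3* and *TIMP4* among the lower genes. Of the 64 members, 21 passed the test (an adjusted p under 0.05 in limma, adjusted over 19460 features) in at least 1 of 5 comparisons, namely 8 MMP, 7 ADAM, 2 ADAMTS and all 4 TIMP genes. This was 32.8% of the members, beside 32.4% of all features called in at least 1 comparison. The other 43 members had log2 fold changes between -0.209 and 0.23 in every comparison of groups. Since probes differ in brightness the levels of genes cannot be ranked from an array, but as a description 17 members had a mean signal above the median feature (8.47), and 15 of these 17 (88.2%) were among the 21, where 46.2% of all features above that median were called in at least 1 comparison. The remaining pair of them, *ADAM33* and *ADAMTS12*, passed no test. After knockdown 6 members were called without serum (1 higher and 5 lower, 9.38% of the members) and 6 with 10% FBS (3 higher and 3 lower, also 9.38%), where 2.33% and 4.08% of all features were called. Serum withdrawal was followed by 19 called members in siControl cells (12 higher, 7 lower, 29.7%) and 14 in siLAPTM4B cells (7 higher, 7 lower, 21.9%), against 26.0% and 20.7% of all features, so these shares were close to the background. The interaction of knockdown and serum, fitted to all 12 arrays, had 1 called member (1.56%), *MMP1*, and 0.262% of features. Median log2 fold changes of the members lay between -0.0122 and 0.0215 in the 5 comparisons, and those of all features between -0.015 and 0.00676. With 3 arrays a group, an exact two-sided permutation test of a single gene cannot go below p = 0.1, so the fitted p-values are given.

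**Figure D1:**
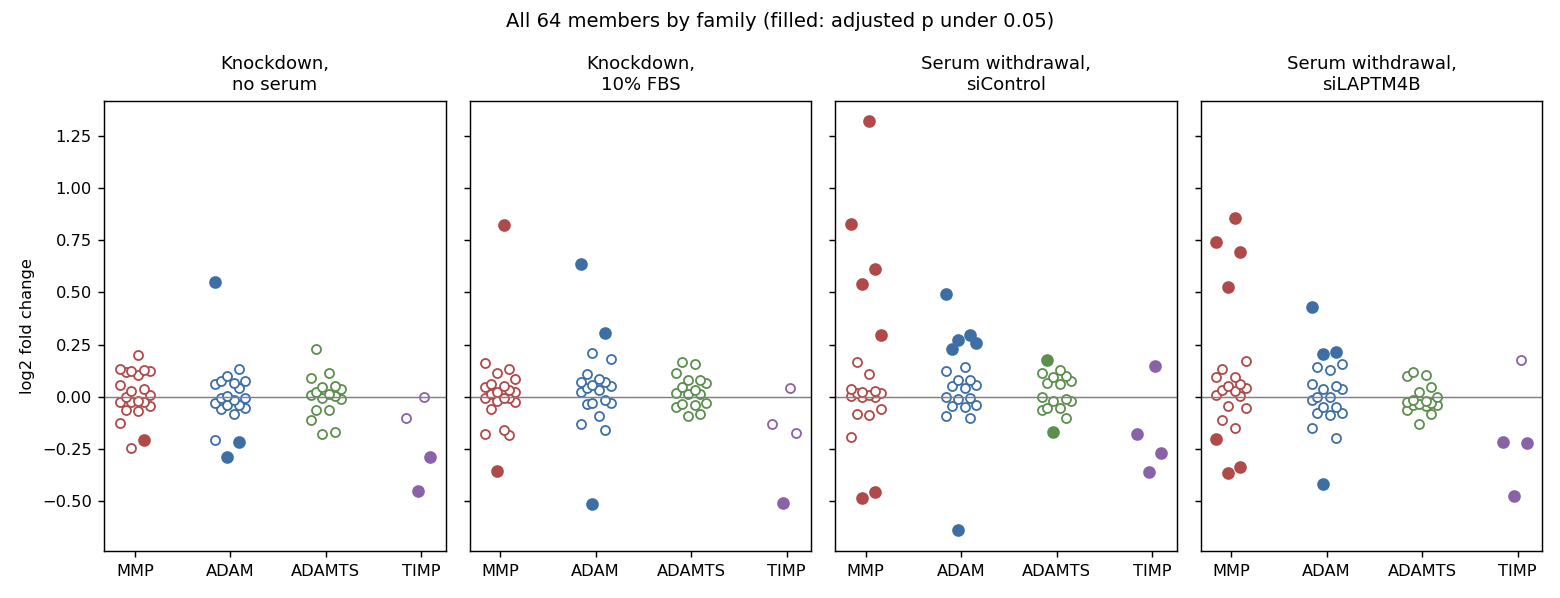
Log2 fold change of each of the 64 members, by family, after *LAPTM4B* knockdown (siLAPTM4B minus siControl) without serum and with 10% FBS, and on serum withdrawal (no serum minus 10% FBS) in siControl and in siLAPTM4B cells. Each circle is 1 gene and filled circles have an adjusted p under 0.05 in limma; most members lie near 0, *MMP1* is the highest filled point in serum after knockdown (0.82) and on withdrawal in siControl cells (1.32), and the TIMP column lies mostly below 0.

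*MMP1*, the interstitial collagenase, was the member that rose most after knockdown in serum and on withdrawal in siControl cells. Its log2 signal was 7.69, 7.57 and 7.72 in siControl replicates 1 to 3 with 10% FBS and 8.42, 8.70 and 8.32 in the siLAPTM4B replicates. Without serum it was 9.03, 8.90 and 8.99 in siControl and 9.14, 9.18 and 9.20 in siLAPTM4B. The 4 groups thus lay in 1 order with no overlap, lowest in siControl cells in serum and highest in siLAPTM4B cells without serum. The knockdown raised *MMP1* 1.77-fold in serum (log2 fold change 0.82, SE 0.0939, adjusted p = 0.00318), and the change without serum was 0.20 (SE 0.0488, adjusted p = 0.0877), which did not pass. Serum withdrawal raised it 2.5-fold in siControl cells (1.32, SE 0.0555, adjusted p = 1.73e-06) and 1.62-fold in siLAPTM4B cells (0.69, SE 0.0888, adjusted p = 0.000469). Each of these 3 calls was kept with any 1 of its 6 arrays left out.

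The test of the difference between the 2 knockdown effects gave -0.63 for *MMP1* (SE 0.115, 95% interval -0.874 to -0.377, adjusted p = 0.0477), so the knockdown effect was smaller without serum than in serum. This call was at the edge: it was kept without siLAPTM4B replicate 2 or 3 in 10% FBS and lost without any of the other 10 arrays, where the adjusted p was 0.0634 to 0.13. It was also lost with all 33252 features tested (adjusted p = 0.143), with a robust prior variance (0.0531) and with the replicate number as a block (0.0543). It passed with a prior variance that followed the signal (0.00834) and with the brighter features alone (0.0156).

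The other called collagenase, *MMP13* (collagenase 3), moved with serum in siControl cells. Its log2 signal was 7.32, 7.30 and 7.41 in siControl cells with 10% FBS and 7.64, 7.63 and 7.67 without serum, so the groups did not overlap. It rose by 0.30 on withdrawal there (SE 0.0444, adjusted p = 0.00171). In siLAPTM4B cells the values were 7.23, 7.42 and 7.47 in serum and 7.53, 7.30 and 7.37 without, overlapping groups with a difference of 0.03 (95% interval -0.15 to 0.209). The difference between the siRNA groups was -0.27 and did not pass (adjusted p = 0.342). *MMP1* and *MMP13* lie in a run of 9 neighbouring MMP genes in the RefSeq gene order, *MMP7*, *MMP20*, *MMP27*, *MMP8*, *MMP10*, *MMP1*, *MMP3*, *MMP12* and *MMP13*. Of this run only *MMP1* was called in any comparison with a knockdown, and *MMP1*, *MMP13* and *MMP7* were the members called on serum withdrawal.

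*MMP2*, gelatinase A, which cleaves type IV collagen, moved opposite to *MMP1*. Its log2 signal was 11.40, 11.41 and 11.40 in siControl and 11.09, 11.03 and 11.03 in siLAPTM4B cells with 10% FBS. Without serum the values were 10.91, 10.90 and 10.94 in siControl and 10.70, 10.75 and 10.68 in siLAPTM4B. The groups again did not overlap, with siControl cells in serum highest and siLAPTM4B cells without serum lowest. The knockdown lowered *MMP2* to 0.782 of the control in serum (log2 fold change -0.35, SE 0.0441, adjusted p = 0.00485) and to 0.867 without serum (-0.21, SE 0.0426, adjusted p = 0.0482). The first of these was kept whichever of its 6 arrays was left out, and the second was lost each time, at an adjusted p of 0.112 to 0.176, and also with the replicate number as a block (0.0547). Withdrawal lowered it to 0.714 in siControl (-0.49, adjusted p = 4.3e-05) and 0.791 in siLAPTM4B cells (-0.34, adjusted p = 0.00103). The other gelatinase, *MMP9*, was called in no comparison.

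**Figure D2:**
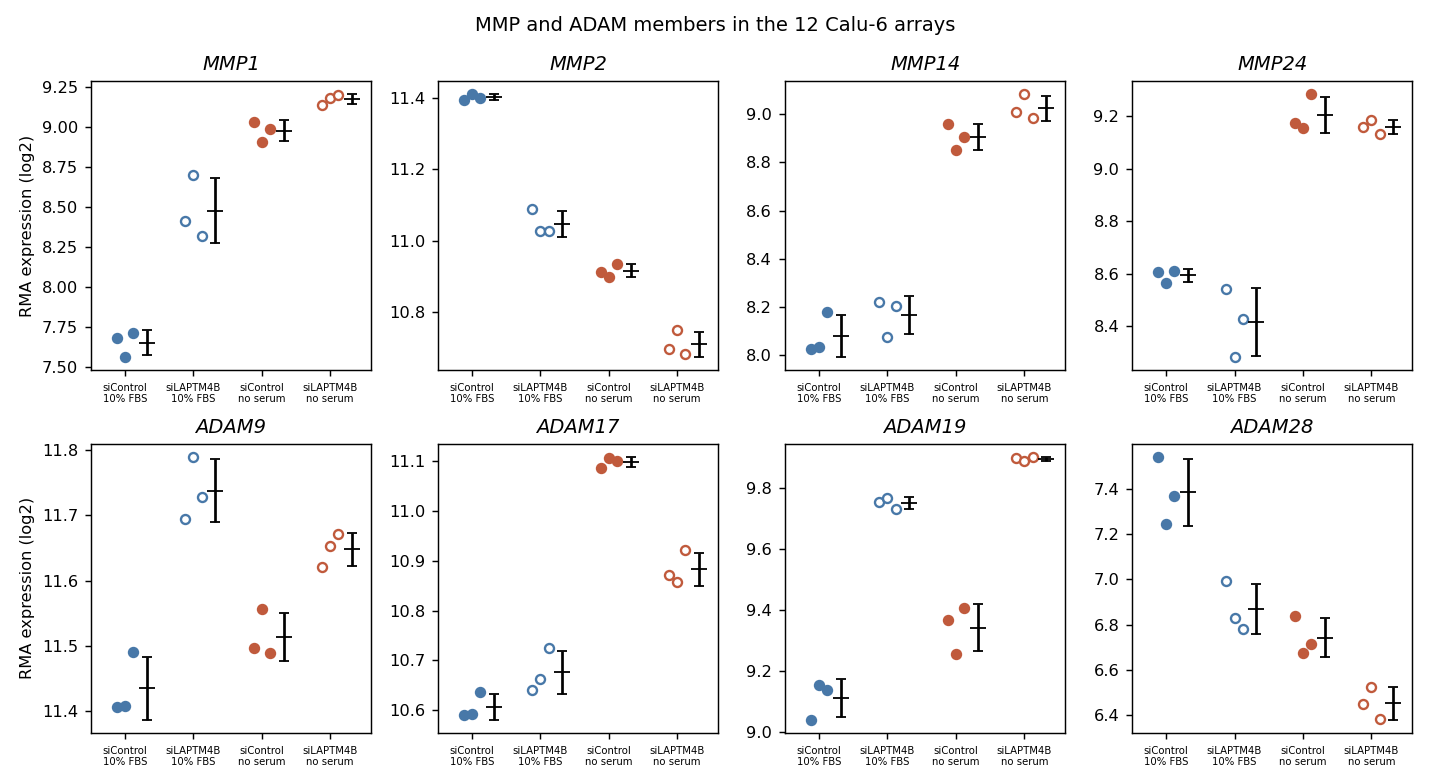
RMA log2 expression of 8 MMP and ADAM members in each of the 12 arrays, by siRNA and medium (blue, 10% FBS; red, no serum; filled, siControl; open, siLAPTM4B). Points are arrays and bars show the mean and SD of 3; the vertical axis does not start at 0 and differs between panels, and *MMP1* runs from 7.57 to 9.20 across the groups while *MMP2* falls from 11.41 to 10.68 in the same order.

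*MMP14* and *MMP24*, membrane-type MMPs that act at the cell surface, and *MMP11*, stromelysin 3, rose together on serum withdrawal in both siRNA groups. *MMP14*, whose product activates the MMP2 precursor, measured 8.02, 8.03 and 8.18 in siControl and 8.22, 8.08 and 8.20 in siLAPTM4B cells with 10% FBS. It reached 8.96, 8.85 and 8.90 and then 9.01, 9.08 and 8.99 in the same groups without serum. Every array without serum lay above every array with serum, and the rise was 1.77-fold in siControl (0.83, SE 0.0553, adjusted p = 2.01e-05) and 1.81-fold in siLAPTM4B cells (0.86, SE 0.0576, adjusted p = 7.43e-06). *MMP24* measured 8.61, 8.57 and 8.61 in siControl and 8.54, 8.28 and 8.43 in siLAPTM4B cells in serum, against 9.18, 9.16 and 9.29 and 9.16, 9.19 and 9.13 without. Its rise was 1.53-fold (0.61, SE 0.0472, adjusted p = 4.33e-05) and 1.67-fold (0.74, SE 0.0674, adjusted p = 5.13e-05). *MMP11* measured 8.67 to 8.82 and 8.68 to 8.83 in serum and 9.25 to 9.34 and 9.26 to 9.33 without, a 1.45-fold and 1.44-fold rise (adjusted p = 0.000135 and 0.00013). The knockdown itself was called for none of the 3 in either medium. Its 95% intervals in serum were -0.0541 to 0.229 for *MMP14*, -0.327 to -0.0255 for *MMP24* and -0.114 to 0.156 for *MMP11*. Without serum they were 0.00802 to 0.232, -0.158 to 0.0671 and -0.0952 to 0.111 in the same order.

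The stretches of 120 bases before the start sites of these 3 genes are shown because they are the MMPs that rose with serum withdrawal in both siRNA groups and have a RefSeq promoter window. They were read from RefSeq on GRCh38.p14, at chr22:23772729-23772848, plus strand, for *MMP11*, chr14:22836465-22836584, plus strand, for *MMP14* and chr20:35226570-35226689, plus strand, for *MMP24*. Each runs 5′ to 3′ on the strand of the gene up to the base before the start, and capitals mark the letters GGGCGG, the core of an SP1 site, or their reverse complement.
MMP11: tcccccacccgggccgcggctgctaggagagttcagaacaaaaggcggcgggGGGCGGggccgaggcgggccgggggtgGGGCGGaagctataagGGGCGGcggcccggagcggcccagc
MMP14: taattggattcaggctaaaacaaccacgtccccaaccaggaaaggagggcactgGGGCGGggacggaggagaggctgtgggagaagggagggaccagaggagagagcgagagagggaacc
MMP24: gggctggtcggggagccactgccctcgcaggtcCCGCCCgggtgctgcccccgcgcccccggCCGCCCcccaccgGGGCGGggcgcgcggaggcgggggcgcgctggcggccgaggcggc
They hold 3, 1 and 3 such matches and have GC contents of 77.5%, 60% and 88.3%.

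The remaining called MMPs were *MMP19*, a secreted MMP, and *MMP7*, matrilysin. *MMP19* measured 7.94, 8.07 and 7.96 in siControl and 7.80, 7.66 and 8.03 in siLAPTM4B cells with 10% FBS, against 7.57, 7.35 and 7.68 and 7.50, 7.51 and 7.38 without serum. It fell by 0.46 on withdrawal in siControl (SE 0.0831, adjusted p = 0.00455) and by 0.36 in siLAPTM4B cells (SE 0.0884, adjusted p = 0.0168), the latter not passing without siLAPTM4B replicate 3 in no serum (adjusted p = 0.0519). *MMP7* gave a low signal throughout, 5.52 to 5.86, and the call for it was weak. In siLAPTM4B cells it was 5.80, 5.86 and 5.82 with serum and 5.72, 5.52 and 5.63 without, a fall by 0.20 (SE 0.0605, adjusted p = 0.0413). That call was lost without any 1 array other than siLAPTM4B replicate 1 in no serum (adjusted p = 0.0743 to 0.17) and with the replicate block (0.0564). The 14 MMPs never called, among them *MMP3*, *MMP9* and *MMP10*, had log2 fold changes between -0.194 and 0.172.

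Among the ADAMs, *ADAM19* (meltrin beta), which sheds neuregulins, answered the knockdown most clearly. Its log2 signal was 9.04, 9.16 and 9.14 in siControl and 9.75, 9.77 and 9.73 in siLAPTM4B cells with 10% FBS. Without serum it was 9.37, 9.26 and 9.41 in siControl and 9.90, 9.89 and 9.90 in siLAPTM4B. Both siLAPTM4B groups lay above both siControl groups. The rise was 1.56-fold in serum (0.64, SE 0.0487, adjusted p = 0.00059) and 1.47-fold without (0.55, SE 0.0498, adjusted p = 0.0023), and each was kept whichever of its 6 arrays was left out. Withdrawal raised it by 0.23 in siControl cells (SE 0.0541, adjusted p = 0.015), not passing without siControl replicate 3 in no serum (adjusted p = 0.0557), and the 0.14 in siLAPTM4B cells missed the threshold (adjusted p = 0.0527).

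*ADAM9*, a widely expressed membrane ADAM, and *ADAM28*, first known from lymphocytes, were the other ADAMs called in serum after knockdown, in opposite directions. *ADAM9* measured 11.41, 11.41 and 11.49 in siControl and 11.70, 11.79 and 11.73 in siLAPTM4B cells with 10% FBS, a rise by 0.30 (SE 0.0494, adjusted p = 0.0144). Without serum it was 11.50, 11.56 and 11.49 against 11.62, 11.65 and 11.67, and the difference of 0.13 did not pass (adjusted p = 0.177). *ADAM28* measured 7.54, 7.25 and 7.37 in siControl and 6.99, 6.83 and 6.78 in siLAPTM4B cells in serum, and 6.84, 6.68 and 6.72 against 6.45, 6.53 and 6.38 without. Neither pair of groups overlapped, and it fell by 0.52 in serum (SE 0.0838, adjusted p = 0.0144) and by 0.29 without (SE 0.0591, adjusted p = 0.0452). Withdrawal lowered it in siControl (-0.64, SE 0.0785, adjusted p = 0.000575) and siLAPTM4B cells (-0.42, SE 0.0674, adjusted p = 0.00199). The knockdown calls rested on single arrays in part. In serum, *ADAM9* was lost without siControl replicate 2 (adjusted p = 0.082) or siLAPTM4B replicate 3 (0.0637), and *ADAM28* without siLAPTM4B replicate 2 (0.0519) or 3 (0.0743). Without serum, *ADAM28* was lost with any 1 of 6 arrays left out (0.0828 to 0.124).

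*ADAM17* and *ADAM10*, the main sheddases of TNF, EGF receptor ligands and Notch, rose on serum withdrawal. *ADAM17* measured 10.59, 10.59 and 10.64 in siControl and 10.64, 10.66 and 10.73 in siLAPTM4B cells with 10% FBS. Without serum it was 11.09, 11.11 and 11.10 in siControl and 10.87, 10.86 and 10.92 in siLAPTM4B. The siControl arrays without serum thus stood highest, and the siLAPTM4B arrays without serum lay between them and all arrays with serum. Withdrawal raised *ADAM17* 1.41-fold in siControl (0.49, SE 0.0383, adjusted p = 4.6e-05) and 1.15-fold in siLAPTM4B cells (0.21, SE 0.0497, adjusted p = 0.016). The second was lost without siLAPTM4B replicate 3 in no serum (adjusted p = 0.0647) or replicate 1 in serum (0.0502). The knockdown lowered it by 0.22 without serum (SE 0.0418, adjusted p = 0.0387), a call lost with any 1 of 6 arrays left out (0.0661 to 0.171), and the change in serum was 0.07 (adjusted p = 0.5). The test of the difference between the media gave -0.28 (SE 0.0551) and missed the threshold (adjusted p = 0.0611). It passed with a prior variance that followed the signal (0.00646), with the brighter features alone (0.0124) and with the replicate number as a block (0.0434). With a robust prior variance and with all features tested it did not pass.

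*ADAM10* measured 11.44, 11.50 and 11.56 in siControl and 11.50, 11.64 and 11.50 in siLAPTM4B cells with 10% FBS, against 11.81, 11.77 and 11.73 and 11.78, 11.72 and 11.79 without serum. It rose by 0.27 (SE 0.0471, adjusted p = 0.0037) and by 0.21 (SE 0.0561, adjusted p = 0.0243), and the second call was lost without any 1 array other than siLAPTM4B replicate 2 in serum (0.0513 to 0.0879). *ADAM15* (metargidin), which has an integrin-binding disintegrin domain, measured 9.65 to 9.83 and 9.55 to 9.63 in serum and 10.03 to 10.05 and 9.95 to 10.07 without, and rose by 0.30 (adjusted p = 0.00392) and 0.43 (adjusted p = 0.00038). *ADAM32* rose by 0.26 in siControl cells (SE 0.0556, adjusted p = 0.0102), from 6.72 to 6.92 in serum to 7.05 to 7.08 without, and the 0.16 in siLAPTM4B cells did not pass (adjusted p = 0.193). The 14 ADAMs never called had log2 fold changes between -0.209 and 0.207.

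Among the ADAMTS genes *ADAMTS9* and *ADAMTS19* were called, both on withdrawal in siControl cells. These were 11.8% of the 17, beside 26.0% of all features. Of the 17, 2 had a mean signal above the median feature, and low signals leave small changes hard to see on this array. After knockdown limma called 0 of the 17 in either medium, beside 2.33% and 4.08% of all features. An unadjusted p under 0.05 was found for 3 of them without serum and 1 in serum, beside 15.1% and 18.2% of all features, and the t-test that the methods name called 0 in both after adjustment. On withdrawal in siControl cells *ADAMTS9*, which cleaves aggrecan and versican, rose by 0.18 (SE 0.0384, adjusted p = 0.0107), from 10.92, 10.92 and 10.93 to 11.13, 11.07 and 11.11. *ADAMTS19* gave a low signal and fell by 0.17 there (SE 0.0409, adjusted p = 0.0174), from 6.35, 6.31 and 6.28 to 6.11, 6.15 and 6.17. The latter call was lost without siControl replicate 2 in no serum (adjusted p = 0.0521) or replicate 1 (0.0508) or 2 (0.0578) in serum. In siLAPTM4B cells limma and the t-test called 0 of 17 on withdrawal, beside 20.7% of all features called by limma. At an unadjusted p under 0.05 there were 0, beside 31.2% of all features, and all 17 log2 fold changes lay between -0.132 and 0.116.

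*TIMP3*, the inhibitor of ADAM17 and of many MMPs, was the member that fell most after knockdown without serum, and *ADAM28* alone fell slightly more in serum. Its log2 signal was 12.36, 12.27 and 12.30 in siControl and 11.88, 11.78 and 11.75 in siLAPTM4B cells with 10% FBS. Without serum it was 12.01, 12.03 and 12.08 in siControl and 11.60, 11.56 and 11.60 in siLAPTM4B. The 4 groups did not overlap, with siControl cells in serum highest. The knockdown lowered it to 0.704 of the control in serum (-0.51, SE 0.0524, adjusted p = 0.00222) and to 0.73 without (-0.45, SE 0.0427, adjusted p = 0.0023), and both calls were kept whichever of the 6 arrays was left out. Withdrawal lowered it by 0.27 in siControl (SE 0.0434, adjusted p = 0.00253) and by 0.22 in siLAPTM4B cells (SE 0.0524, adjusted p = 0.0173), the second lost without siLAPTM4B replicate 2 in no serum (0.0766) or replicate 1 in serum (0.0522).

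A second feature of *TIMP3*, annotated to a single mRNA record, gave lower signals and partly other changes. It measured 11.31, 11.21 and 11.17 in siControl and 10.47, 9.97 and 10.36 in siLAPTM4B cells in serum, and 10.68, 10.84 and 11.06 against 10.34, 10.52 and 10.46 without. After knockdown it fell by 0.964 in serum (SE 0.114, adjusted p = 0.00378), and the change of -0.42 without serum just missed the threshold (adjusted p = 0.0601). On withdrawal it was called lower in siControl cells (-0.37, adjusted p = 0.0187), while in siLAPTM4B cells its change was 0.174 (adjusted p = 0.355). The fall of *TIMP3* on withdrawal in siLAPTM4B cells therefore holds for its brighter feature, and the mean of both gave -0.0205 (adjusted p = 0.898).

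**Figure D3:**
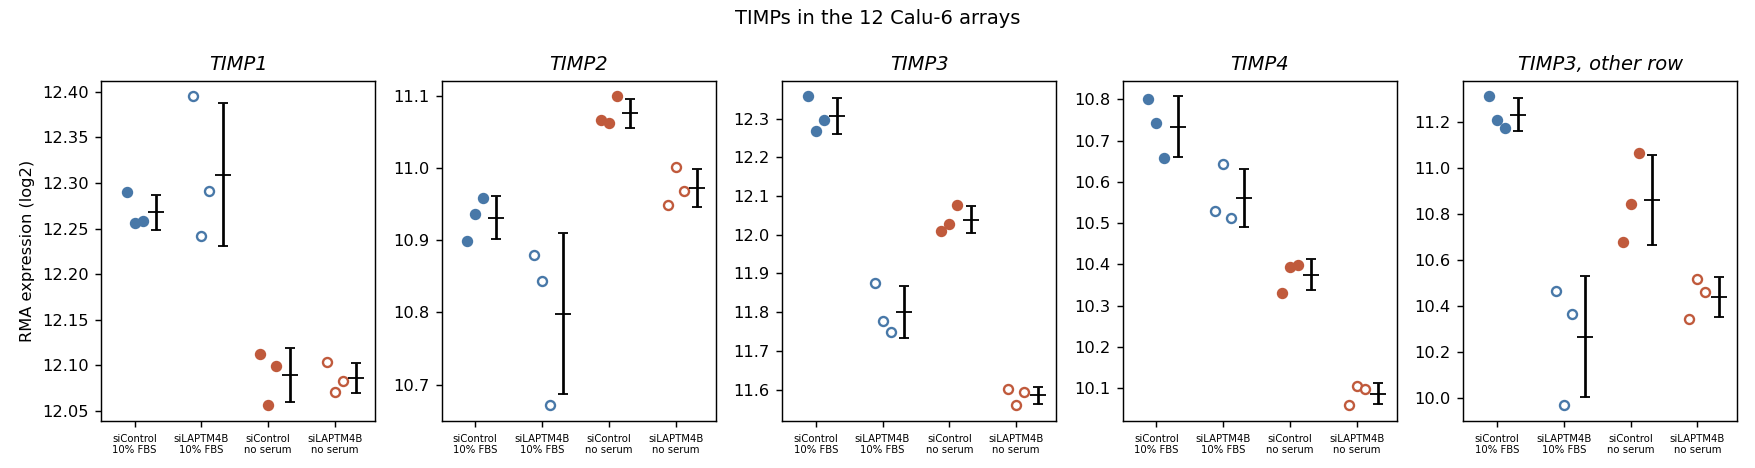
RMA log2 expression of the 4 TIMPs and of the second *TIMP3* feature in each of the 12 arrays, by siRNA and medium (blue, 10% FBS; red, no serum; filled, siControl; open, siLAPTM4B). Points are arrays, bars show the mean and SD of 3, and vertical axes do not start at 0. *TIMP3* is highest in siControl cells with serum (up to 12.36) and lowest in siLAPTM4B cells without serum (down to 11.56). Its siControl arrays without serum lie above its siLAPTM4B arrays with serum. *TIMP1* separates the media (12.24 to 12.40 with serum, 12.06 to 12.11 without) and not the siRNAs.

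*TIMP4* fell along with *TIMP3* on withdrawal. It measured 10.80, 10.74 and 10.66 in siControl and 10.53, 10.64 and 10.51 in siLAPTM4B cells in serum, and 10.33, 10.40 and 10.40 against 10.06, 10.11 and 10.10 without. The groups did not overlap, and withdrawal lowered it by 0.36 in siControl (SE 0.0494, adjusted p = 0.00109) and by 0.47 in siLAPTM4B cells (SE 0.0534, adjusted p = 0.000207). The knockdown lowered it by 0.29 without serum (SE 0.0434, adjusted p = 0.0142). That call was lost without siControl replicate 2 (0.0707) or 3 (0.0711) or siLAPTM4B replicate 2 (0.067), and in serum the change of -0.17 did not pass (adjusted p = 0.15).

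*TIMP1*, a secreted inhibitor, gave a bright signal and changed little. It was 12.26 to 12.29 in siControl and 12.24 to 12.40 in siLAPTM4B cells with serum, and 12.06 to 12.11 and 12.07 to 12.10 without. It fell by 0.18 on withdrawal in siControl (SE 0.0392, adjusted p = 0.0112) and by 0.22 in siLAPTM4B cells (SE 0.0543, adjusted p = 0.017), and the 95% interval of the knockdown change was -0.0985 to 0.0919 without serum and -0.0771 to 0.16 in serum. The first call was lost without siControl replicate 2 in no serum (0.0508), and the second without siLAPTM4B replicate 2 (0.0692) or 3 (0.0505) in no serum or replicate 1 in serum (0.0502). *TIMP2*, which binds MMP14 and the MMP2 precursor, was the TIMP that rose, from 10.90, 10.94 and 10.96 to 11.07, 11.06 and 11.10 in siControl cells (0.14, SE 0.0393, adjusted p = 0.0281). This was lost without any 1 array other than siControl replicate 3 in serum (0.0503 to 0.0932), and the 0.17 in siLAPTM4B cells did not pass (adjusted p = 0.0836).

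In the RefSeq annotation *TIMP1*, *TIMP3* and *TIMP4* lie inside the synapsin genes *SYN1*, *SYN3* and *SYN2*, and *TIMP2* overlaps *CEP295NL* in part, so their host genes were read too. *SYN3*, *SYN2* and *CEP295NL* were called in no comparison. After knockdown in serum *SYN3* changed by -0.088 (adjusted p = 0.636), beside the fall by 0.51 of *TIMP3*. *SYN1* fell after knockdown in serum (-0.319, adjusted p = 0.0232) and rose on withdrawal in siLAPTM4B cells (0.187, adjusted p = 0.0379), where *TIMP1* fell.

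Promoter stretches of *TIMP3* and *TIMP4*, the inhibitors that fell after knockdown, and of *ADAM19*, which rose after knockdown in both media, are shown in the same way. They lie at chr22:32801585-32801704, plus strand, chr3:12158913-12159032, minus strand, and chr5:157575776-157575895, minus strand, in that order, on GRCh38.p14.
TIMP3: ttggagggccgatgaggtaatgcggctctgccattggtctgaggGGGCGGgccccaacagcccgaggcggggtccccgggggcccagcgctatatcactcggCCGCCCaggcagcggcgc
TIMP4: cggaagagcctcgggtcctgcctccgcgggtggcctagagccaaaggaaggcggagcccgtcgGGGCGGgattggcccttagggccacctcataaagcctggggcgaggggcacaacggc
ADAM19: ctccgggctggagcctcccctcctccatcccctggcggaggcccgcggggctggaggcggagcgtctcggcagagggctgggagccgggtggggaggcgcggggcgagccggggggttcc
They hold 2, 1 and 0 matches to GGGCGG or its reverse complement.

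RefSeq windows of 300 bases (250 before and 50 after the start) were given for 37 of the 64 members. Motifs were searched on both strands. GGGCGG was present in 24 of the 37 windows (64.9%), against 45% of all 35116 windows and 56.3% of those of coding genes. The TATA box letters TATAAA were present in 8 (21.6%, against 11.5% of all and 9.47% of coding windows). These were *MMP7*, *MMP8*, *MMP10*, *MMP20*, *MMP21*, *MMP26*, *ADAM21* and *ADAMTS10*. The match began at -30, -31 and -28 from the start in *MMP7*, *MMP10* and *MMP26*, and farther from these positions in the others. TGANTCA, the AP-1 site that is known from MMP promoters, was present in 4 (10.8%, against 7.71% of all and 6.15% of coding windows), in *MMP7*, *MMP10*, *MMP20* and *ADAMTS12*. The core of the antioxidant response element bound by NRF2, TGACNNNGC, was present in 3 (8.11%, against 13.3% of all and 13.8% of coding windows), in *MMP27*, *ADAMTS2* and *ADAMTS12*. Of the genes with a match to the last pair of motifs, *MMP7* was the one called in any comparison. These are matches of letters in short windows, and they are not sites of binding.

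Set side by side, the 2 media shared 4 of their 6 and 6 knockdown calls in the same direction (66.7% of each), with *ADAM19* higher and *MMP2*, *ADAM28* and *TIMP3* lower. *ADAM17* and *TIMP4* were called without serum and *MMP1* and *ADAM9* in serum. Of these 4, the difference between the media passed its test for *MMP1*, and the adjusted p was 0.0611 for *ADAM17*, 0.332 for *ADAM9* and 0.588 for *TIMP4*. On serum withdrawal 13 members were called in the same direction in both siRNA groups, 68.4% of the 19 in siControl and 92.9% of the 14 in siLAPTM4B cells. These were *MMP1*, *MMP11*, *MMP14*, *MMP24*, *ADAM10*, *ADAM15* and *ADAM17*, all higher, and *MMP2*, *MMP19*, *ADAM28*, *TIMP1*, *TIMP3* (by its brighter feature) and *TIMP4*, all lower. Shared calls were not counted over all features. The shares of the members, for knockdown and for withdrawal, are therefore a description and not a trait of these families. The 2 knockdown comparisons used different arrays, as did the 2 withdrawals, but each group entered 1 knockdown and 1 withdrawal comparison, so those 2 kinds of change are not independent of each other.

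**Figure D4:**
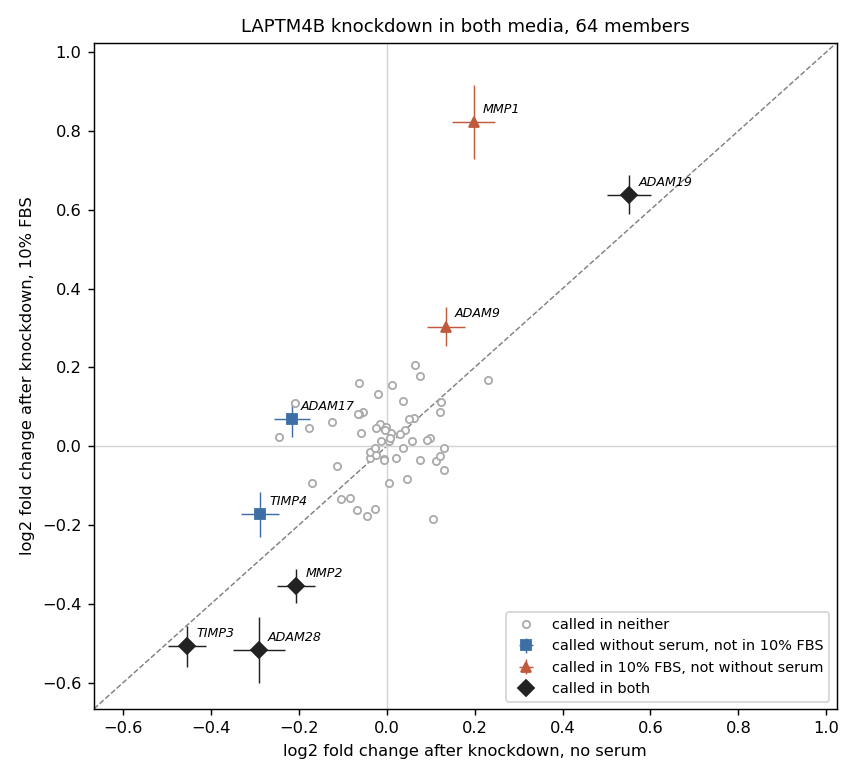
Log2 fold change of the 64 members after *LAPTM4B* knockdown without serum (horizontal) and with 10% FBS (vertical), with standard errors on members called in either. Diamonds are called in both media, squares without serum, triangles in serum and grey circles in neither, and the dashed line marks equal change; *MMP1* lies above the line (0.20 and 0.82), and *ADAM19* (0.55 and 0.64) and *TIMP3* (-0.45 and -0.51) lie close to it.

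**Figure D5:**
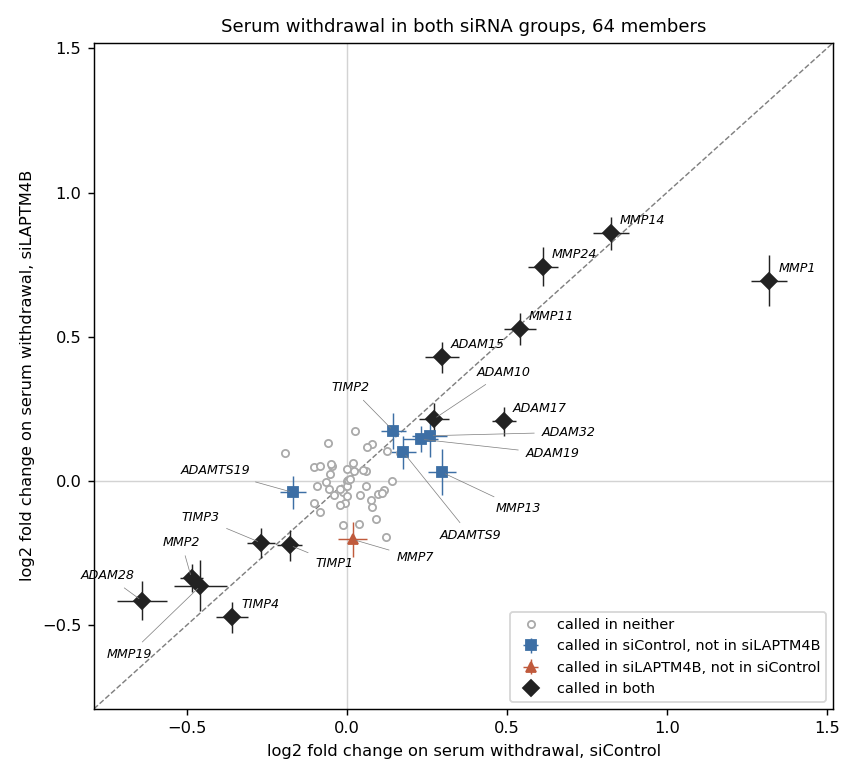
Log2 fold change of the 64 members on serum withdrawal in siControl (horizontal) and siLAPTM4B cells (vertical), with standard errors on members called in either. Diamonds are called in both siRNA groups, squares in siControl, triangles in siLAPTM4B and grey circles in neither, and the dashed line marks equal change; *MMP14* (0.83 and 0.86) and *MMP11* (0.54 and 0.53) lie near the line and *MMP1* (1.32 and 0.69) and *ADAM17* (0.49 and 0.21) below it.

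Genes that act on or with these proteases were read from lists by function, and their shares of calls stand beside those of all features, 2.33% and 4.08% after knockdown without and with serum and 26.0% and 20.7% on withdrawal in siControl and siLAPTM4B cells. The median log2 fold change of a list lay between -0.0709 and 0.179 over these lists and comparisons. All these lists were chosen with earlier results of these data known. A share above that of all features is therefore a description and not a test of a list. Of 9 measured genes of the plasminogen activator system and the proprotein convertases, 6 (66.7%, against 26.0%) were called on withdrawal in siControl (4 higher, 2 lower) and 5 (55.6%, against 20.7%) in siLAPTM4B cells (3 higher, 2 lower). Those in siControl cells included urokinase (*PLAU*, -1.96), *FURIN*, which activates several MMP and ADAM precursors (-0.855), *PCSK6* (0.519) and *SERPINE2* (0.353). After knockdown limma called 1 without serum (11.1%) and 3 in serum (33.3%; 1 higher, 2 lower), and the t-test after adjustment 0 and 3. *PLAU* rose without serum (0.431, adjusted p = 0.00486) and fell in serum (-0.456, adjusted p = 0.00147), and this difference was called (0.886, adjusted p = 6.09e-05). Of 9 further inhibitors and inducers, *SPOCK3* rose (1.12 and 1.08) and *SPOCK1* fell (-0.666 and -0.378) on withdrawal in siControl and siLAPTM4B cells, *RECK*, a membrane-anchored MMP inhibitor, fell by 0.225 in siLAPTM4B cells, and *SPOCK1* fell by 0.284 after knockdown in serum. These were 22.2% and 33.3% of the list on withdrawal and 11.1% after knockdown in serum, where the t-test after adjustment called 0. After knockdown without serum 0 of the 9 were called by limma or the t-test, with 2 at an unadjusted p under 0.05, as were 15.1% of all features.

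Of 11 genes listed as possible partners of ADAM10 and ADAM17, 8 (72.7%, against 26.0%) were called on withdrawal in siControl cells (6 higher, 2 lower). In siLAPTM4B cells 7 were called (63.6%, against 20.7%; 6 higher, 1 lower). *SH3PXD2A* and *SH3PXD2B* are not established partners of these ADAMs, but they are in the list and among the higher genes of both counts. The iRhom gene *RHBDF1*, which carries ADAM17 to the surface, rose by 0.525 and 0.545, *SH3PXD2B* by 0.549 and 0.522 and *TSPAN5* by 0.448 and 0.24, while *TSPAN15* fell by 0.446 and 0.568. After knockdown limma and the t-test called 0 of the 11 in either medium, and 0 without serum and 2 in serum had an unadjusted p under 0.05, beside 15.1% and 18.2% of all features. Of 30 measured membrane proteins that ADAMs shed, 14 (46.7%, against 26.0% in siControl and 20.7% in siLAPTM4B cells) were called on withdrawal in each siRNA group (6 higher, 8 lower). In siControl cells *HBEGF* (0.623), *ERBB4* (0.527) and *NOTCH1* (0.453) rose and *AXL* fell (-0.439). *L1CAM*, a known substrate of ADAM10, was the 1 gene of this list that limma called after knockdown (3.33% in each medium). It was lower without serum (-0.295, adjusted p = 0.0262) and in serum (-0.327, adjusted p = 0.0149). By the t-test after adjustment the list had 0 calls without serum and 1 in serum.

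Of 23 measured matrix substrates, limma called 4 after knockdown without serum and 3 in serum, 17.4% and 13.0% of the list against 2.33% and 4.08%. Those without serum were *TNC* (0.439) higher and *LUM* (-0.498), *FBN1* (-0.305) and *SPARC* (-0.205) lower. In serum they were *TNC* (0.221), *LUM* (-0.525) and *SPARC* (-0.196). By the t-test after adjustment the calls were 0 without serum and 1 in serum. On withdrawal 6 were called in each siRNA group (26.1%, close to the 26.0% and 20.7% of all features), 3 higher and 3 lower, with *LUM* (-1.87 in siControl cells), *TNC* (0.882), *FBN1* (0.596) and *VCAN* (-0.503) the most changed. Of 23 transcription factors known from MMP promoters, 5 (21.7%, against 2.33%) were called after knockdown without serum and all were lower, led by *EGR1* (-0.666), *FOS* (-0.622), *RUNX2* (-0.322) and *SNAI2* (-0.322). In serum 3 were called (13.0%, against 4.08%), *RUNX2* (-0.47) and *SNAI2* (-0.426) lower and *ETS1* (0.219) higher. These are limma calls, and the t-test after adjustment called 1 of the 23 after knockdown in each medium. Withdrawal was followed by 17 calls in siControl (73.9%, 11 higher, 6 lower) and 13 in siLAPTM4B cells (56.5%, 10 higher, 3 lower), among them *FOS* (1.7 and 0.795), *RUNX2* (-1.27 and -1.12), *JUN* (1.15 and 0.708) and *EGR1* (0.865 and 0.381). For *FOS* (-0.905, adjusted p = 0.00959) and *EGR1* (-0.484, adjusted p = 0.0424) the knockdown effect differed between the media. Of 16 related metalloproteinases and ADAMTS-like genes, *PAPPA*, which cleaves IGF-binding proteins, was the 1 that limma called after knockdown without serum (6.25% of the list, -0.502, adjusted p = 0.00486). There the t-test after adjustment called 0. In serum 0 were called by limma or the t-test, with 2 at an unadjusted p under 0.05, beside 18.2% of all features. On withdrawal 4 (25.0%) were called in siControl (2 higher, 2 lower) and 3 (18.8%) in siLAPTM4B cells (1 higher, 2 lower), near the background, with *PAPPA* higher in both (0.645 and 0.306) and *THSD4* lower in both (-0.479 and -0.518).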

How the data were processed

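RNA of 12 cultures was hybridised to Affymetrix Human Gene 1.0 ST arrays. The authors deposited log2 values, obtained with RMA in BRB-ArrayTools v 4.3.0, a procedure that subtracts background, equalises the distributions of the arrays and summarises probes. The library file and probe set level are not given in the sources used here. They hold no detection calls, and the number of arrays limits the precision. Features were named from GEO's platform annotation: of 33252, 19460 had 1 symbol and were used, 1754 had several and 12038 had none. Of the features with several symbols, 2 name a member and were left out. Groups came from the labels.

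The 2 groups of each comparison were fitted in limma 3.58.1 (R 4.3.3), and the interaction used the full set of 12. Benjamini-Hochberg adjustment ran over the 19460 features, with calls under 0.05. The fit was tested on simulated data. P-values measure the spread between the cultures of a group. The members and lists were chosen with earlier results of these data known. Named were members called in any comparison, members with non-overlapping groups and a log2 change over 0.3 (all of them called), the TIMPs and *LAPTM4B*, and up to 4 called genes of each other list per comparison.

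Deviations of same-numbered arrays from their group means correlated at 0.37, 0.13 and 0.2 between the media in siControl cells, so these numbers may pair the arrays there. Between siLAPTM4B cells without serum and siControl cells with 10% FBS, groups not compared, the correlations were 0.48, 0.18 and 0.35. For replicate 1 they were 0.18 to 0.48 over all pairs of groups, so a pairing need not be confined to siControl cells. The fits and p-values reported used no pairing in any comparison, and the replicate block was run as an alternative alone. In each comparison of groups other than withdrawal in siControl cells, at least 1 such correlation fell under 0.1. Alternatives were median centring, cyclic loess, brighter features alone, all features, a trended or robust prior, the unadjusted p threshold of the methods (0.01), a replicate block, the mean over a gene's features, 1 fit of all arrays, Student's test from the methods' statistics section and leaving out each array.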

Additional observations from a re-analysis of the deposited data

Results flagged for a closer look

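The knockdown effect on *MMP1* differed between the media: it was 0.82 on the log2 scale with 10% FBS and 0.20 without serum, and the interaction term of limma gave -0.63 (SE 0.115, adjusted p = 0.0477). *MMP1* was higher in every siLAPTM4B array than in every siControl array of the same medium, so both effects had 1 direction and differed in size. The adjusted p lay between 0.00834 and 0.143 over the other settings of the fit, and between 0.0285 and 0.13 with 1 array left out.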

How the results depend on the processing

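No called value of a member changed sign with median centring, cyclic loess, the mean over features, 1 fit of all arrays, the replicate block or 1 array left out. After knockdown without serum 6 members were called, 2 with all 33252 features tested, 10 at an unadjusted p under 0.01, 1 by the methods' t-test after adjustment and 2 to 4 with 1 array left out. After knockdown in serum 6 were called, and 3 by that t-test. In siLAPTM4B cells the 14 calls on withdrawal became 9 to 14 with 1 array left out, 9 without replicate 3 of the siLAPTM4B arrays in no serum. The interaction had 1 call, 2 with the brighter features alone, 2 with a trended prior, 2 at an unadjusted p under 0.01, 0 with all features, 0 with a robust prior and 0 to 1 with 1 array left out. With all features 0 members passed for the interaction, and 8 had an unadjusted p under 0.05 in the fit as reported. With the replicate block the counts were 6 and 6 after knockdown, 19 and 14 on withdrawal and 1 for the interaction. Under that block *MMP2* after knockdown without serum (adjusted p = 0.0547), *MMP7* on withdrawal in siLAPTM4B cells (0.0564) and *MMP1* in the interaction (0.0543) were lost, while *ADAMTS6* (0.045), *MMP15* (0.0493) and *ADAM17* (0.0434) were gained in the same comparisons, in that order, the first pair named after their values were seen. No call on withdrawal in siControl cells was lost. Of the called values of single genes, 235 of 243 stayed called over median centring, cyclic loess, the mean over features, 1 fit of all arrays and the replicate block, and 231 of 306 with 1 array left out; the other settings were followed by the counts above alone. Of all features, 454 were called after knockdown without serum, against 880 among the brighter ones, 134 with all features, 1114 with a trended prior, 687 in 1 fit of all arrays, 1291 and 1041 at an unadjusted p under 0.01 in limma and the t-test, 27 by the adjusted t-test and 118 to 290 with 1 array left out. In serum 793 were called, against 1362, 279, 1650, 1370, 1574, 1300, 177 and 228 to 482, and for the interaction 51, against 107 among the brighter ones, 17 with all features, 160 with a trended prior, 84 with the block, 682 at an unadjusted p under 0.01 and 19 to 51 with 1 array left out. The causes were not tested. Low signals such as that of *MMP7* leave small changes hard to see on this array.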
